A study of Mus musculus with 10 samples.

Results

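Vessel tone in the liver is set largely by nitric oxide and endothelin, and 8 genes of these pathways were followed in whole mouse liver, out of 55385 gene IDs measured. The genes were taken from a given list and matched by Ensembl ID without its version. They are the nitric oxide synthase genes Nos2 and Nos3, the genes Gucy1a1 and Gucy1b1 for the subunits of soluble guanylate cyclase, the ligand gene Edn1, the converting enzyme gene Ece1 and the receptor genes Ednra and Ednrb. The rule names the genes and uses no measured value. RNA from frozen, homogenised liver tissue was sequenced on the BGISeq-500 in 5 libraries of the group Alk1-HEC-KO and in 5 control libraries, whose genotype is given as Ctrl. ALK1 is the protein product of Acvrl1, an endothelial receptor for BMP ligands. The labels do not spell out HEC, name no Cre driver or strain, and give no age, sex or treatment. Separate mice are not stated for the libraries of either group, and p-values therefore measure only library-to-library spread.

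Endothelial nitric oxide synthase, encoded by Nos3, makes nitric oxide in vessel walls in response to flow and to agonists, whereas the inducible enzyme encoded by Nos2 is switched on by inflammatory cytokines in macrophages, hepatocytes and other cells. Nitric oxide binds soluble guanylate cyclase in the neighbouring contractile cells, which makes cGMP and relaxes them. Endothelin acts in the opposite sense: the precursor encoded by Edn1 is cleaved by endothelin-converting enzyme, and the peptide binds the ETA receptor (Ednra) on contractile cells, among them the hepatic stellate cells around the sinusoids, or the ETB receptor (Ednrb), which on endothelial cells triggers nitric oxide release and clears the peptide.

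Each library held 20.91 to 21.56 M estimated counts (M, mega). Levels are given as TPM, a transcript abundance that is scaled for transcript length and to the same sum in every library, so that it can be set side by side between genes, and fold changes as log2 of the labelled knockout over the control. Acvrl1 itself averaged higher in libraries labelled knockout, with a log2 fold change of 0.99 (SE, standard error, 0.32) that missed the threshold (adjusted p = 0.336 by edgeR's quasi-likelihood test with Benjamini-Hochberg adjustment). In TPM its groups did not overlap, at 1.12 to 1.92 in the labelled knockout and 0.296 to 1.05 in the control. Such separation held for 1.09% of all genes with a count, and in log2 CPM the groups of Acvrl1 overlapped. The direction of Acvrl1 goes against the label, although a gene-level value cannot show the loss of an exon. The group is therefore called the labelled knockout, and each direction rests on the label. Of 12872 tested genes, 46 passed at an adjusted p under 0.05, which is 0.357%. Higher in the labelled knockout were 24 of them (0.186%) and lower 22 (0.171%). The labelled tissue showed its defining transcripts, with a summed level of 6 hepatocyte markers of 36900 to 70600 TPM in labelled knockout libraries and 37200 to 67000 TPM in control libraries. None of these 6 was called, the smallest p being those of Cyp3a11, Apoa1 and Asgr1 (log2 fold changes -0.54, 0.20 and -0.08; edgeR adjusted p = 0.699, 0.824 and 0.887), and Alb was the most abundant. Nor was any of the 3 tested of 6 cholangiocyte markers, Sox9, Epcam and Spp1 (1.16, -0.32 and 0.09; edgeR adjusted p = 0.19, 0.876 and 0.956), of which Spp1 was the most abundant.

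Nos2 was the member that passed the test. It was found in every labelled knockout library at a low level and was almost undetected in the controls, while Nos3 was about 2-fold higher without passing, and the cyclase subunits, Ece1 and both endothelin receptors gave log2 fold changes between -0.16 and 0.34 with intervals that include 0. Edn1 had too few counts for the test. Of the 8 genes 7 were tested, 1 was called higher and 0 were called lower, against 0.186% and 0.171% of all tested genes. Nos2 entered the test only through the labelled knockout, where all 5 libraries exceeded the cut of 0.472 CPM (counts scaled to a common library size, here 10 counts) against 0 control libraries, so the count of called genes says little by itself.

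**Figure D1:**
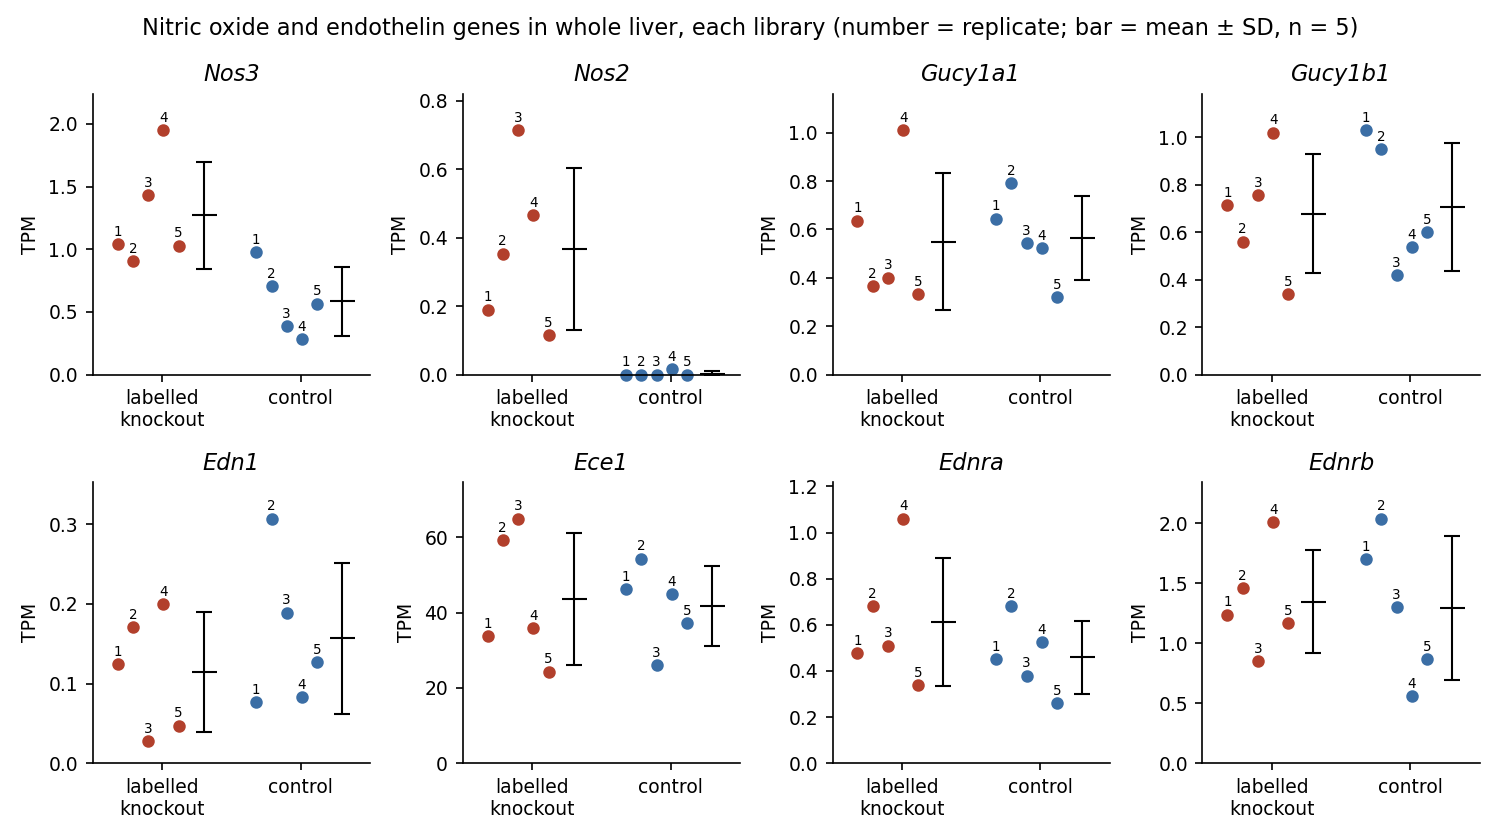
TPM of the 8 genes in each library, with the 5 labelled knockout libraries on the left and the 5 control libraries on the right of each panel. Points are libraries numbered by replicate, and the bars beside them give the mean and SD, drawn no lower than 0. The groups are apart for Nos2 and overlap for the other genes, with labelled knockout library 4 the highest of its group for Nos3, Gucy1a1, Gucy1b1, Edn1, Ednra and Ednrb.

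The inducible synthase gene Nos2 (ENSMUSG00000020826.9, chr11:78920787-78960254, plus strand, GRCm38) held 15, 25, 51, 38 and 10 estimated counts in labelled knockout libraries 1 to 5. Control libraries 1 to 5 held 0, 0, 0, 1 and 0. The group totals were 139 counts in the labelled knockout and 1 in the control, a ratio of 140 with a 95% exact binomial interval of 24.7 to 5560 that covers counting error only. Every labelled knockout library therefore lay above every control library.

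In TPM, Nos2 stood at 0.19, 0.353, 0.714, 0.465 and 0.116 in the labelled knockout, a mean of 0.368 ± 0.237, against 0.00332 ± 0.00742 in the control (SD, n = 5 each). The labelled knockout libraries themselves ranged over several-fold, with library 3 the highest and library 5 the lowest. The fitted log2 fold change was 6.35 (SE 0.77), with a 95% interval from 4.7 to 8.01 (adjusted p = 0.00172 by the same edgeR test). A fitted value of this size depends on the prior count given to the libraries at 0 and is no bound. The exact two-sided permutation test of log2(TPM + 0.1) gave p = 0.00794, the smallest that 5 against 5 can give. Groups that do not overlap in TPM were found for 1.09% of all 27507 genes with a count. In log2 CPM the groups of Nos2 did not overlap either, which held for 1.68% of tested genes, 0.948% with the labelled knockout higher. Over all the settings tried, the adjusted p of Nos2 ran from 7.38e-09 to 0.121, and the highest of these, the only one above the threshold, came from limma on log2(TPM + 1), a scale on which a gene at these levels can move by little (difference 0.43).

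Nos2 can be made by cells of the immune system, whose markers were therefore set beside it. None of the 7 Kupffer cell markers was called, though all 7 pointed higher, with a median log2 fold change of 0.77 against 0.002 over all tested genes and no marker at 0 in any library. The summed level of the 7 was 79.9 to 159 TPM in the labelled knockout and 47.5 to 82.3 TPM in the control, and Marco, a scavenger receptor of resident macrophages, had the smallest p of the list (log2 fold change 2.37, SE 0.49, edgeR adjusted p = 0.0971). Vsig4 and Cd5l followed with 0.77 and 0.93 (edgeR adjusted p = 0.174 and 0.216), and Clec4f was the most abundant (41.4 TPM in the labelled knockout, 26.9 TPM in the control). Markers of recruited leukocytes were tested for 5 of 8 genes, of which 0 were called, while the 5 all had positive values and a median of 1.19. Itgam, whose value is that median, and Ptprc had log2 fold changes of 1.19 and 0.93 (edgeR adjusted p = 0.289 and 0.299). Itgam totalled 122 counts in the labelled knockout and 51 in the control. In TPM its means were close, at 0.291 ± 0.108 in the labelled knockout and 0.278 ± 0.334 in the control (SD, n = 5 each). The highest control library stood at 0.875 TPM of Itgam, above the highest labelled knockout library at 0.435 TPM. The neutrophil gene S100a9 was the most abundant, at 4.87 ± 6.02 TPM in the labelled knockout and 1.53 ± 1.21 TPM in the control (SD, n = 5 each).

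The summed leukocyte markers were 5.42, 6.73, 4.83, 14.2 and 23.9 TPM in labelled knockout libraries 1 to 5, and 2.44 to 5.78 TPM in the controls, with S100a8, a neutrophil gene, at 0 in at least 1 library. Labelled knockout library 3, the highest for Nos2, had the lowest leukocyte sum of its group, and library 5, the lowest for Nos2, had the highest. Saa1, an acute-phase gene of hepatocytes, exceeded 1000 TPM in labelled knockout libraries 4 and 5 and in control library 4, which was also the control library with the single Nos2 count. Without those 3 libraries Nos2 kept its call (log2 fold change 7.86, edgeR adjusted p = 0.0289). All remaining control libraries then held 0 Nos2 counts, so the size of this value depends on the prior count and its direction could hardly turn. The part of Kupffer cells and leukocytes in the Nos2 level was not tested.

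The numbers in the names of the deposited data fall into 3 runs of consecutive numbers, whose meaning is not given, and the third run holds labelled knockout libraries only. Within the first run Nos2 was 0.19 TPM in the labelled knockout library, against 0 in the control libraries. Within the second run it was 0.714 TPM in the labelled knockout library, against 0 to 0.0166 TPM in the control libraries. With the run as a covariate the log2 fold change was 6.72 (edgeR adjusted p = 0.00436). Because the third run holds no control library, the group effect in that fit rests on the first and second runs. Each of these holds 1 labelled knockout library.

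The endothelial synthase gene Nos3 (ENSMUSG00000028978.12, chr5:24364810-24384474, plus strand) stood at 1.04, 0.906, 1.43, 1.95 and 1.03 TPM in labelled knockout libraries 1 to 5. The control libraries 1 to 5 stood at 0.976, 0.704, 0.388, 0.284 and 0.567 TPM. In TPM the groups overlapped through labelled knockout library 2 and control library 1, and the remaining labelled knockout libraries lay above all controls. In log2 CPM labelled knockout library 1 (1.93) also lay just below control library 1 (1.94). The means were 1.27 ± 0.426 TPM in the labelled knockout and 0.584 ± 0.272 TPM in the control (SD, n = 5 each), from 493 and 227 counts in total.

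The log2 fold change of Nos3 was 1.06 (SE 0.33), with a 95% interval from 0.35 to 1.77, and it did not pass over all genes (edgeR, unadjusted p = 0.00667, adjusted p = 0.326). An unadjusted p under 0.05 was reached by 8.44% of all tested genes. Taken alone, the exact two-sided permutation test gave p = 0.0159 on log2(TPM + 0.1) and p = 0.0238 on log2 CPM. Within the first run Nos3 was 1.04 TPM in the labelled knockout library, against 0.704 to 0.976 TPM in the controls, and within the second run 1.43 TPM in the labelled knockout library, against 0.284 to 0.567 TPM in the controls. Without the 3 libraries rich in Saa1 the log2 fold change was 0.57 (edgeR adjusted p = 0.96). Nos3 shares 294 exonic bases with Atg9b on the opposite strand and 1040 with the antisense gene Gm15587, and strand use in counting is not stated. Atg9b totalled 19.4 counts in the labelled knockout and 28.6 in the control, and Gm15587 totalled 3 in the labelled knockout and 4 in the control, all far below Nos3.

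**Figure D2:**
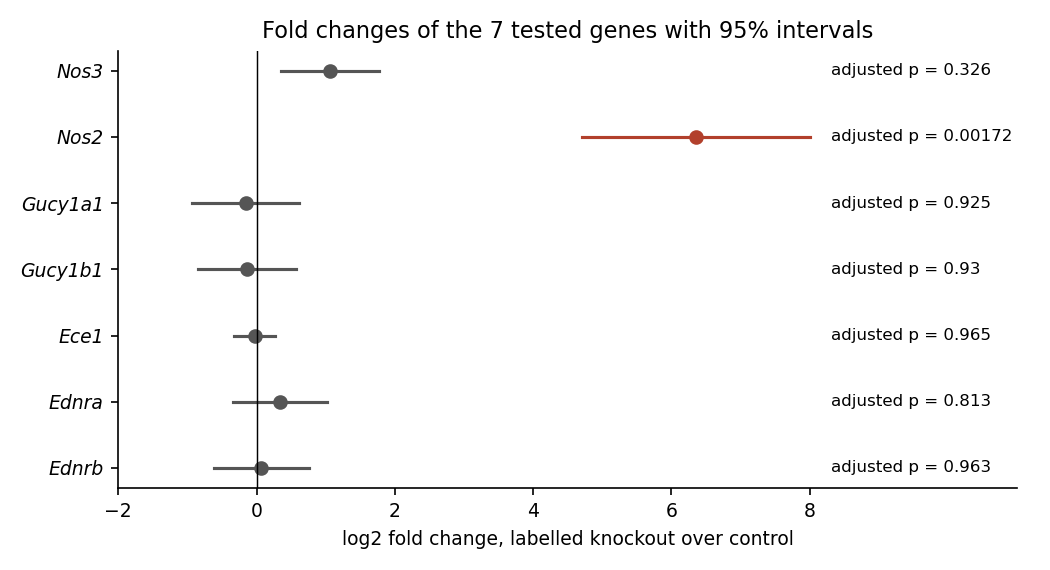
Log2 fold change of the labelled knockout over the control for the 7 tested genes, with 95% intervals from the edgeR fit and the Benjamini-Hochberg adjusted p over all tested genes. The interval of Nos2 runs from 4.7 to 8.01 and that of Nos3 from 0.35 to 1.77, while the other 5 intervals include 0.

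Soluble guanylate cyclase, the receptor of nitric oxide, is a dimer of an alpha and a beta subunit, encoded here by Gucy1a1 (ENSMUSG00000033910.13, chr3:82092427-82145789) and Gucy1b1 (ENSMUSG00000028005.13, chr3:82032006-82074689). Both lie on the minus strand of chromosome 3, 17737 bases apart with 0 annotated genes between them. Because the subunit genes sit in tandem, the stretches in front of their starts are shown, read from RefSeq (GRCm38.p6) on the strand of the gene, 5′ to 3′: 250 bases before the RefSeq start of Gucy1b1 (chr3:82074712-82074961) and, for Gucy1a1, the 111 bases of its RefSeq window that lie in front of the annotated gene (chr3:82145790-82145900). Capitals mark GGGCGG, the letters of the GC box, and ATTGG, which is the CCAAT box read from the opposite strand.
Gucy1b1: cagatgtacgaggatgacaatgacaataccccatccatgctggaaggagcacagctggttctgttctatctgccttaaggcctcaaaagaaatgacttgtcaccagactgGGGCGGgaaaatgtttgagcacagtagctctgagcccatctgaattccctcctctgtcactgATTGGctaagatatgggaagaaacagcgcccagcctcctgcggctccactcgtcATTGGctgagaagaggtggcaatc
Gucy1a1: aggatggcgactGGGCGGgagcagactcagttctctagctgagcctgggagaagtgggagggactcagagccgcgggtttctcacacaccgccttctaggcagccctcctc
The motifs searched on both strands were GGGCGG of the GC box, CCAAT of the CCAAT box, the KLF factor motif CACCC and the TATA box TATAAA, and none of the matches overlap. Counted from the first printed base, the Gucy1b1 stretch holds GGGCGG at 111 to 116 and the CCAAT letters on the opposite strand at 173 to 177 and at 227 to 231. The Gucy1a1 stretch holds GGGCGG at 13 to 18. The letters CACCC and TATAAA are in neither stretch. A further RefSeq window of Gucy1a1, inside the annotated gene (chr3:82145024-82145323), is not printed. It holds CACCC 3 times and GGGCGG 0 times. Among 32851 RefSeq windows cut to 250 bases, 32.7% hold GGGCGG, 33.8% CCAAT, 52% CACCC and 12.4% TATAAA, and cut to 111 bases the shares are 11.7%, 15%, 27.1% and 5.65%.

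Neither subunit differed between the groups beyond the spread of the libraries. Gucy1a1 stood at 0.636, 0.366, 0.401, 1.01 and 0.333 TPM in the labelled knockout, against 0.644, 0.791, 0.542, 0.522 and 0.319 TPM in the control. Its means were 0.549 ± 0.283 TPM in the labelled knockout and 0.564 ± 0.173 TPM in the control (SD, n = 5 each), with a log2 fold change of -0.16 (SE 0.36) and a 95% interval from -0.93 to 0.61 (edgeR, adjusted p = 0.925). Labelled knockout library 4 was the highest of all 10 libraries, and the other labelled knockout libraries lay within the control range.

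Gucy1b1 stood at 0.715, 0.561, 0.756, 1.02 and 0.339 TPM in the labelled knockout, against 1.03, 0.951, 0.419, 0.536 and 0.599 TPM in the control. The means of 0.678 ± 0.25 TPM in the labelled knockout and 0.707 ± 0.268 TPM in the control (SD, n = 5 each) gave a log2 fold change of -0.14 (SE 0.33), with a 95% interval from -0.85 to 0.57 (edgeR, adjusted p = 0.93). The groups overlapped over nearly their whole range. The ratio of the alpha to the beta subunit gene in TPM was 0.53 to 0.992 in labelled knockout libraries and 0.533 to 1.29 in control libraries, a difference of -0.04 in log2 ratio (exact two-sided permutation p = 0.921, also 0.921 after Benjamini-Hochberg adjustment over 8 ratios). The direction of both subunits turned in some of the settings tried.

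On the endothelin side the ligand gene Edn1 (ENSMUSG00000021367.8, chr13:42301476-42307990, plus strand) had few counts in both groups and was left out of the test across genes, since 0 labelled knockout libraries and 1 control library passed the cut. It stood at 0.124, 0.171, 0.0279, 0.2 and 0.0472 TPM in the labelled knockout, against 0.0767, 0.307, 0.189, 0.083 and 0.127 TPM in the control. The means were 0.114 ± 0.0753 TPM in the labelled knockout and 0.157 ± 0.0954 TPM in the control (SD, n = 5 each). Totals of 22 counts in the labelled knockout and 30 in the control gave a ratio of 0.738 with a 95% counting interval of 0.405 to 1.32. The groups overlapped, and the difference of -0.27 in log2(TPM + 0.1) gave p = 0.437 in the exact two-sided permutation test. Fitted without the count filter, the log2 fold change of Edn1 was -0.53 (SE 0.67; edgeR adjusted p = 0.803), and with DESeq2 -0.54 (SE 0.70; adjusted p = 0.93).

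Ece1 (ENSMUSG00000057530.14, chr4:137862237-137965229, plus strand), which encodes the protease that makes active endothelin, was by far the most abundant of the 8 genes. It stood at 33.8, 59.3, 65.0, 35.9 and 24.3 TPM in the labelled knockout, against 46.3, 54.4, 26.1, 45.0 and 37.3 TPM in the control. The labelled knockout held both the highest and the lowest library, and its mean was 43.6 ± 17.6 TPM, against 41.8 ± 10.7 TPM in the control (SD, n = 5 each). The log2 fold change was -0.03 (SE 0.14), with a 95% interval from -0.33 to 0.27, the narrowest of the tested genes (edgeR, adjusted p = 0.965). Its sign turned in several settings, always at values near 0.

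The ETA receptor gene Ednra (ENSMUSG00000031616.7, chr8:77663031-77724464, minus strand) stood at 0.476, 0.68, 0.509, 1.06 and 0.337 TPM in the labelled knockout, against 0.451, 0.682, 0.38, 0.526 and 0.26 TPM in the control. Library 4 of the labelled knockout lay above all others, and the rest of the libraries were mixed. The means of 0.612 ± 0.278 TPM in the labelled knockout and 0.46 ± 0.158 TPM in the control (SD, n = 5 each) gave a log2 fold change of 0.34 (SE 0.32), with a 95% interval from -0.34 to 1.02 (edgeR, adjusted p = 0.813). Without labelled knockout library 4 the value was 0.03, and with the run as a covariate -0.04.

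The ETB receptor gene Ednrb (ENSMUSG00000022122.15, chr14:103814625-103844402, minus strand) stood at 1.24, 1.46, 0.85, 2.01 and 1.17 TPM in the labelled knockout, against 1.7, 2.04, 1.3, 0.557 and 0.865 TPM in the control. The control libraries spanned a wider range than the labelled knockout libraries and enclosed all of them. The means were 1.35 ± 0.429 TPM in the labelled knockout and 1.29 ± 0.603 TPM in the control (SD, n = 5 each), with a log2 fold change of 0.07 (SE 0.32) and a 95% interval from -0.62 to 0.76 (edgeR, adjusted p = 0.963). Within the first run Ednrb was 1.24 TPM in the labelled knockout library, against 1.7 to 2.04 TPM in the control libraries, and within the second run 0.85 TPM in the labelled knockout library, against 0.557 to 1.3 TPM in the controls. Ednrb exceeded Ednra in all 10 libraries, by ratios in TPM of 1.67 to 3.48 in the labelled knockout and 1.06 to 3.76 in the control (difference in log2 ratio -0.23, exact two-sided permutation p = 0.595, adjusted over the 8 ratios 0.68).

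Other annotated genes that overlap these loci held almost no counts. Gm13012, antisense to Ece1, totalled 7 counts in the labelled knockout and 6 in the control, 4933431K23Rik on the strand opposite Ednra 4.1 in the labelled knockout and 0 in the control, and Gm47118 (opposite Edn1) and Mir7010 (within Gucy1a1) had 0 in every library. Set in order of mean TPM in the labelled knockout, the genes ran Ece1, Ednrb, Nos3, Gucy1b1, Ednra, Gucy1a1, Nos2 and Edn1. In the control the order was Ece1, Ednrb, Gucy1b1, Nos3, Gucy1a1, Ednra, Edn1 and Nos2. Neighbours in the order overlapped in TPM except Ece1 over Ednrb in both groups and Edn1 over Nos2 in the control. Nos2 and Nos3 thus each stood a place higher in the order of the labelled knockout. Compared within each library, Nos3 exceeded Gucy1b1 in 5 labelled knockout libraries and lay below it in 5 control libraries. Nos2 likewise exceeded Edn1 in 5 labelled knockout libraries and lay below it in 5 control libraries, with both genes at low levels.

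Nos3 is made by endothelial cells, so its level was set against the summed TPM of endothelial marker lists in the same library. Per summed sinusoidal markers, which mark the fenestrated lining cells of the liver, Nos3 was 2.15-fold higher in the labelled knockout, and per summed continuous markers, which mark the endothelium of larger vessels and other organs, the ratio was 1.19-fold, a direction that turned (difference in log2 ratio -0.28) when the markers were averaged on the log scale. In whole tissue, fewer cells of a type and less RNA per cell cannot be told apart. Of 10 sinusoidal markers, all tested and none at 0 in any library, 0 were called and 6 pointed higher (9 with scaling by library totals alone), with a median log2 fold change of 0.08. The smallest p belonged to Mrc1, Stab1 and Oit3, with log2 fold changes of 0.28, 0.19 and -0.30 (edgeR adjusted p = 0.813, 0.837 and 0.859), and Clec4g was the most abundant (25.6 TPM in the labelled knockout, 25.0 TPM in the control). The summed level of the 10 was 51.4 to 104 TPM in the labelled knockout and 46.4 to 95.4 TPM in the control.

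Nos3 amounted to 1.07, 1.76, 2.13, 1.87 and 1.94% of the summed sinusoidal markers in labelled knockout libraries 1 to 5, against 1.05, 0.738, 0.725, 0.612 and 0.927% in control libraries 1 to 5. All labelled knockout libraries lay above all controls, with library 1 of each group close together. The mean log2 ratios of -5.87 ± 0.39 in the labelled knockout and -6.97 ± 0.31 in the control (SD, n = 5 each) differed by 1.1 (exact two-sided permutation p = 0.00794, the smallest possible, and 0.0635 after Benjamini-Hochberg adjustment over the 8 ratios). The difference therefore did not pass the adjusted threshold of 0.05. Without control library 1 it did, at 1.2 and an adjusted p of 0.0423.

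Against the 12 pan-endothelial markers, Nos3 was 1.45 to 2.24% in the labelled knockout and 0.806 to 1.75% in the control, a fold of 1.51 with overlapping groups (exact two-sided permutation p = 0.0238, adjusted 0.0952). None of these markers was called or at 0 in any library, 11 of 12 pointed higher, and their median log2 fold change was 0.7. Tie1 and Robo4, receptors of the endothelial surface, and the adhesion molecule gene Pecam1 had the smallest p, with log2 fold changes of 0.84, 1.10 and 1.02 (edgeR adjusted p = 0.145, 0.174 and 0.259), and Egfl7 had the highest mean over all libraries (19.2 TPM in the labelled knockout, 11.7 TPM in the control), although Eng exceeded it in the control at 12.9 TPM. The summed level of the 12 was 46.1 to 96.9 TPM in the labelled knockout and 33.6 to 57.8 TPM in the control. Against the continuous markers the ratio of Nos3 was 0.961 to 1.35% in the labelled knockout and 0.668 to 1.54% in the control, with control library 1 the highest of all (exact two-sided permutation p = 0.286, adjusted 0.457). Without control library 1 the difference in log2 ratio was 0.42 rather than 0.25, with an adjusted p of 0.0423.

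Of 10 continuous endothelial markers, all tested, 6 were called higher and 0 lower (median log2 fold change 1.61), against 0.186% of all tested genes called higher. The list was chosen with earlier results of these data known, so this count is no separate evidence. The ratio of Nos3 to these markers depends on the same choice. The called markers were Ly6c1 (15.3 ± 5.51 TPM in the labelled knockout, 0.598 ± 0.267 TPM in the control), Cd34, Emcn, Podxl, Cldn5 and Cav1. Like Nos2, Ly6c1 exceeded the count cut in 5 labelled knockout libraries and 0 controls, so it entered the test only where it is high. The other 4 did not pass: Gpihbp1, Aqp1 and Plvap had log2 fold changes of 0.92, 0.49 and 0.14 (edgeR adjusted p = 0.274, 0.552 and 0.851), and the von Willebrand factor gene Vwf -1.16 (SE 0.39, edgeR adjusted p = 0.379). Over all 10 libraries Aqp1 had the highest mean, with 24.7 TPM in the labelled knockout and 16.9 TPM in the control. The summed level of the 10 was 87 to 164 TPM in the labelled knockout and 42.4 to 75.8 TPM in the control, with no overlap, and no marker was at 0 in any library. Whether the Nos2 and Nos3 transcripts came from such cells was not tested.

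**Figure D3:**
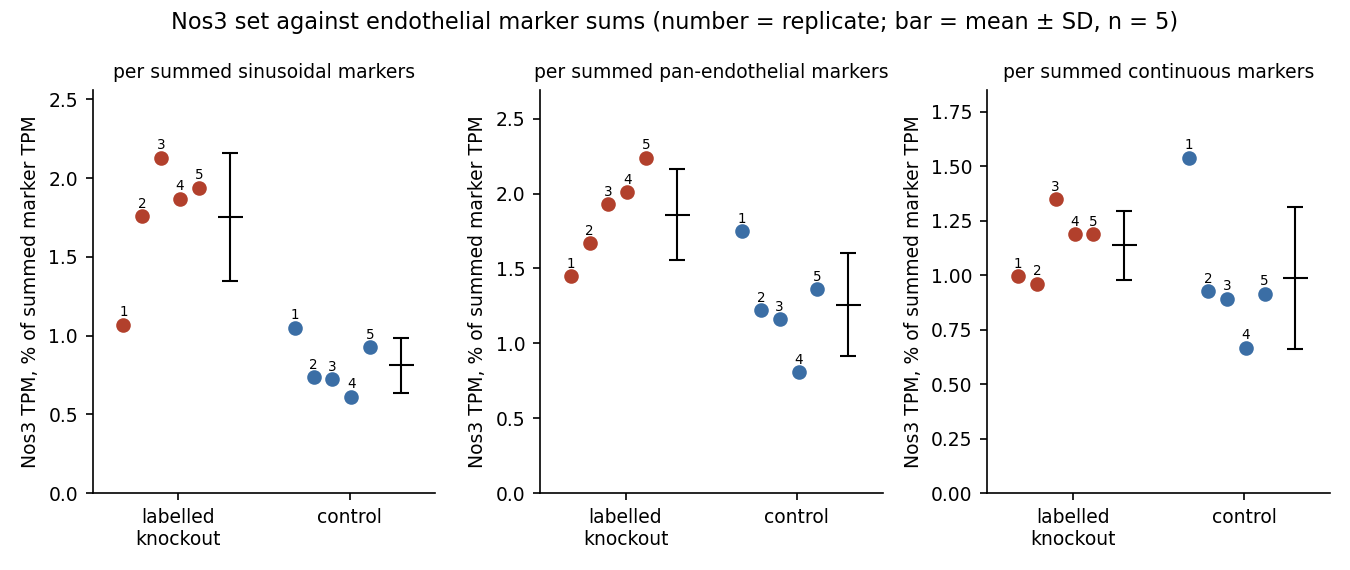
Nos3 TPM as a percentage of the summed TPM of 3 endothelial marker lists in each library, labelled knockout left and control right. Points are libraries numbered by replicate, and bars give the mean and SD (n = 5). The groups are apart only for the sinusoidal markers, where library 1 stands at 1.07% in the labelled knockout and at 1.05% in the control.

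The receptors and the cyclase were set against the cells known to carry them. Ednrb per summed pan-endothelial markers was 0.728 times the control ratio (exact two-sided permutation p = 0.198, adjusted 0.397). Ednra per summed stellate cell markers was 1.25 times (p = 0.143 by the same exact test, adjusted 0.381), and Gucy1b1 per stellate cell markers 0.918 times (exact p = 0.524, adjusted 0.68). Each of these ratios overlapped between the groups. The 11 stellate cell markers, all tested and none at 0, included 0 called (median log2 fold change 0.12) and summed to 77.7 to 236 TPM in the labelled knockout and 109 to 176 TPM in the control. The smallest p among them belonged to Ngfr, Reln and Hand2 (log2 fold changes 0.54, -0.46 and -0.41; edgeR adjusted p = 0.682, 0.703 and 0.709), and Ecm1 was the most abundant (63.3 TPM in the labelled knockout, 60.1 TPM in the control). Labelled knockout library 4, the highest of its group for both receptor genes, for both cyclase subunit genes and for Nos3, also had the highest stellate sum (236 TPM), sinusoidal sum (104 TPM) and pan-endothelial sum (96.9 TPM) of all libraries. Without it the log2 fold change was 0.03 for Ednra, -0.11 for Ednrb, -0.55 for Gucy1a1, -0.38 for Gucy1b1 and 0.84 for Nos3, and none of them passed (edgeR). Of 7 smooth muscle markers 3 were tested and 0 called, with sums of 3.18 to 14.9 TPM in the labelled knockout and 3.47 to 16.7 TPM in the control, and Cnn1, Actg2, Lmod1 and Myocd were at 0 in at least 1 library. The tested ones were Myh11, Acta2 and Tagln, the most abundant, with log2 fold changes of -0.84, -0.52 and 0.15 (edgeR adjusted p = 0.817, 0.886 and 0.95).

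For each tested gene, the genes with the most similar profile over the 10 libraries were found by the root mean square difference of log2 CPM centred on the mean of all libraries, among 11730 genes. Nearest to Nos2 were Apln at 0.59, which encodes the vasodilator peptide apelin, Rflnb at 0.66 and the endothelial marker Cd34 at 0.68, against a spread of 1.85 of Nos2 about its own mean. Apln stood at 0.446, 0.377, 1.99, 1.72 and 0.172 TPM in the labelled knockout, against 0, 0.0184, 0, 0 and 0 TPM in the control. Like Nos2, it was highest in labelled knockout libraries 3 and 4, lowest in library 5, and nearly absent from the controls. These neighbours were picked for likeness over the same libraries, so the pattern they share with Nos2 is no separate evidence. Nos3 took place 120 among the genes nearest to Nos2, at a difference of 1.45. In the other direction Nos2 took only place 11584 of 11730 among the genes nearest to Nos3.

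Nearest to Nos3 were Rasgrp3 at 0.22, which encodes an exchange factor for Ras-family proteins, Arhgef15 at 0.23 and Shank3 at 0.23, against a spread of 0.75. Their log2 fold changes were 0.90, 0.93 and 0.79, none of which passed (edgeR adjusted p = 0.444, 0.277 and 0.495). In log2 CPM all of them, like Nos3, were highest in labelled knockout library 4 and lowest in control library 4, whereas in TPM Rasgrp3 was lowest in control library 5 and Arhgef15 in control library 3. They were picked for likeness over the same libraries, so their fold changes are no separate evidence.

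**Figure D4:**
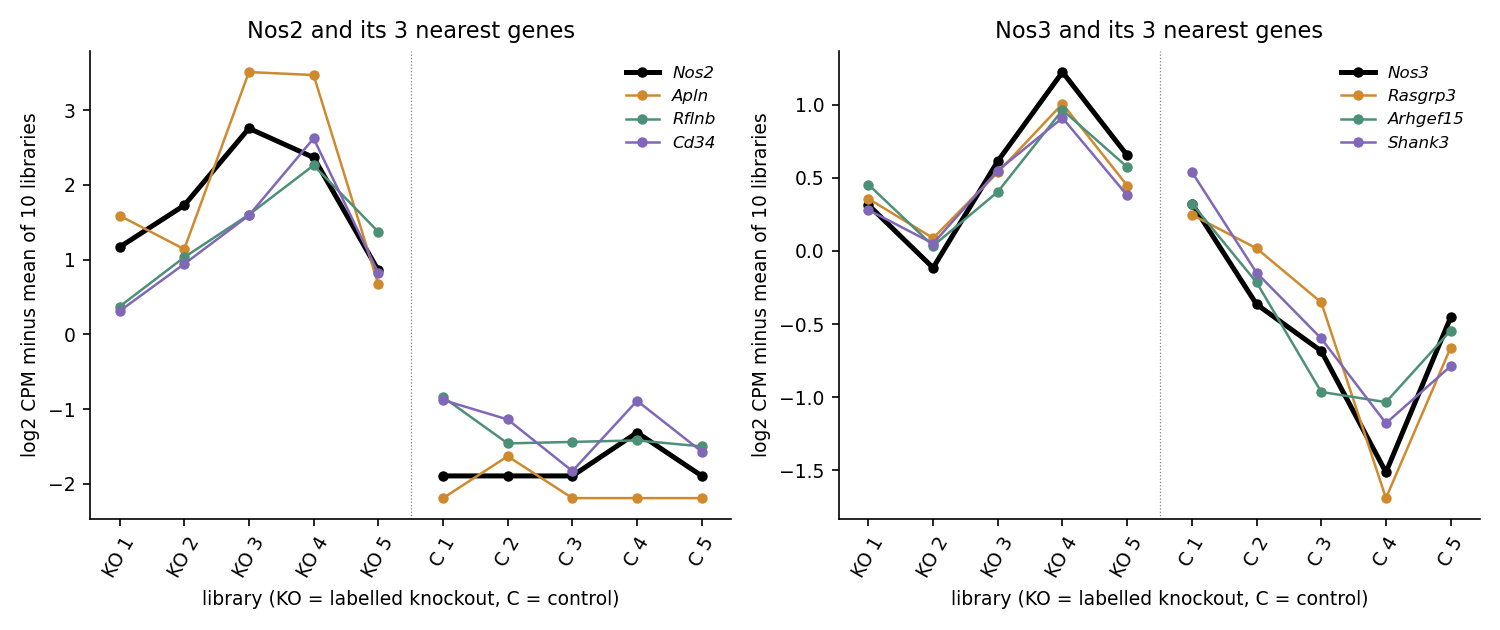
Log2 CPM minus the mean of the 10 libraries for Nos2 (left) and Nos3 (right), each in black, with the 3 genes of the smallest root mean square difference in colour. The lines join libraries for reading only, labelled knockout libraries 1 to 5 before control libraries 1 to 5. Nos2 and Apln peak in labelled knockout libraries 3 and 4, and Nos3 and its neighbours span labelled knockout library 4 at the top to control library 4 at the bottom.

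The nearest genes of the remaining tested members were not among those of either synthase. For Gucy1a1 they were Sult1d1 (0.16), Glis2 (0.24) and D1Ertd622e (0.25), and for Gucy1b1 Dennd2a (0.17), Cyp4b1 (0.19) and Fut11 (0.21). The other subunit ranked only 180 among the genes nearest to Gucy1a1 and 877 among those nearest to Gucy1b1. Ece1 was nearest to Wdr7 (0.06), Lpp (0.07) and Trim44 (0.08), Ednra to Cttnbp2nl, Lrrc32 and Myo9a (all 0.19), and Ednrb to Bmp2 (0.17), Antxr1 (0.17) and Spef1 (0.24).

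Genes around the synthases showed 1 called member. Of 19 genes for the supply of arginine and cofactor and for the regulation of the synthases, 16 were tested, 1 was called higher and 0 lower (median log2 fold change 0.03). Over all tested genes the share called higher was 0.186%. The called gene was Cav1, which encodes caveolin-1, a protein of caveolae that binds and restrains endothelial nitric oxide synthase. It stood at 3.40 ± 2.1 TPM in the labelled knockout and 0.989 ± 0.38 TPM in the control (SD, n = 5 each; log2 fold change 2.11, SE 0.36, edgeR adjusted p = 0.0195), and it also stands among the continuous endothelial markers. Of the 16, 9 pointed higher, or 12 with scaling by library totals alone. Ddah2, which encodes an enzyme that breaks down an inhibitor of the synthases, had a log2 fold change of 0.68 (edgeR adjusted p = 0.632), and Asl of the urea cycle 0.32 (edgeR adjusted p = 0.614). Ass1, which makes the precursor of arginine, was the most abundant of the list (2840 ± 1180 TPM in the labelled knockout, 2750 ± 736 TPM in the control). The neuronal synthase gene Nos1 was untested, with 1 count in the labelled knockout and 4 in the control.

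Downstream of cyclase, 10 of 15 cGMP genes were tested and 0 were called in either direction, with a median log2 fold change of -0.14, and 4 pointed higher. Npr2, which encodes a membrane guanylate cyclase that answers to C-type natriuretic peptide and not to nitric oxide, had the smallest p. It averaged 6.08 ± 2.59 TPM in the labelled knockout and 12.5 ± 2.89 TPM in the control (SD, n = 5 each), with a log2 fold change of -1.22 (SE 0.25; edgeR adjusted p = 0.0784). The cGMP phosphodiesterase gene Pde5a gave -0.76 (edgeR adjusted p = 0.685) and Pde3b, which encodes a phosphodiesterase inhibited by cGMP and had the highest mean of the list over all libraries, -0.33 (edgeR adjusted p = 0.646). Gucy1b2 was at 0 in all libraries, and Gucy1a2, Prkg2 and Kcnma1 in at least 1.

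Of 8 other endothelin genes only 3 had enough counts, and 0 were called. Mme, which encodes neprilysin, a protease that degrades endothelin and other peptides, averaged 1.01 ± 0.775 TPM in the labelled knockout and 2.42 ± 1.12 TPM in the control (SD, n = 5 each; log2 fold change -1.36, SE 0.60, edgeR adjusted p = 0.584). Gna11 and Gnaq, whose products couple endothelin receptors to phospholipase C, gave -0.10 and -0.01, and Gna11 was the most abundant at 15.4 TPM in the labelled knockout and 15.7 TPM in the control. The ligand gene Edn3 and the neprilysin-like gene Mmel1 were at 0 in all 10 libraries, and Edn2, Ece2 and Kel in at least 1.

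Among 26 genes of other vasoactive peptides and prostanoids 13 were tested, 1 was called higher and 0 lower, and the median log2 fold change was 0.38. The share called higher over all tested genes was 0.186%. Apln was the called gene, with 269 counts in the labelled knockout and 1 in the control (log2 fold change 7.30, SE 1.01, edgeR adjusted p = 0.00646). It too entered the test only through the labelled knockout, where 5 libraries exceeded the count cut, against 0 control libraries. Ramp2, a partner of the adrenomedullin receptor, and the thromboxane receptor gene Tbxa2r gave 0.80 and 0.99 without passing (edgeR adjusted p = 0.404 and 0.506), and Agt, the angiotensinogen gene, was the most abundant at 619 ± 209 TPM in the labelled knockout and 464 ± 112 TPM in the control. Of 5 flow-responsive endothelial genes 4 were tested and 0 called, with a median of 0.83. Among them Klf2 and Klf4, transcription factors that raise Nos3 expression under flow, gave 0.50 and 1.18 (edgeR adjusted p = 0.611 and 0.419), Thbd, the thrombomodulin gene, 1.16 (edgeR adjusted p = 0.393), and S1pr1, the most abundant, -0.11 (edgeR adjusted p = 0.888).

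**Figure D5:**
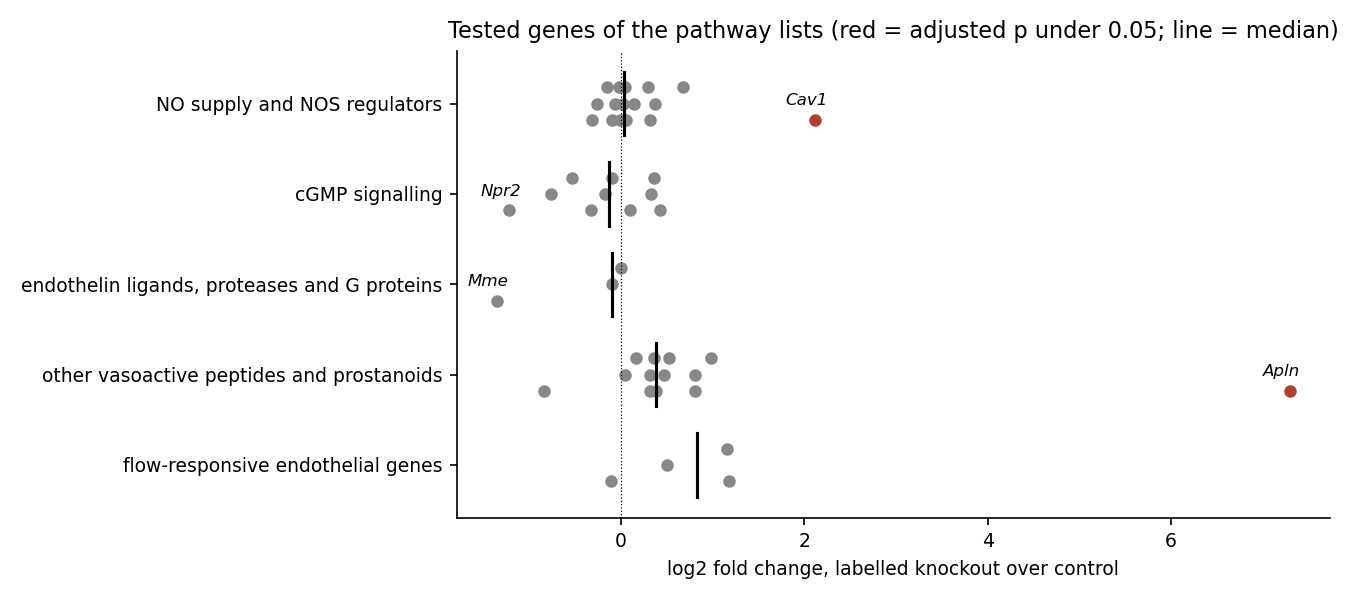
Log2 fold change of the labelled knockout over the control for each tested gene of the 5 pathway lists, without the 8 genes themselves. Red points passed at an adjusted p under 0.05 and black lines are the list medians. Cav1 at 2.11 and Apln at 7.30 are the called genes, and Npr2 at -1.22 and Mme at -1.36 are labelled as the lowest without having passed.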

How the data were processed

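RNA of whole liver was measured in 5 Alk1-HEC-KO and 5 control libraries. Each had a table of estimated counts and a table of TPM per gene, both deposited by the authors over 55385 Ensembl IDs. Trim Galore 0.6.4, kallisto 0.4.6 and the build GRCm38.p6 are named per the submitters' processing notes. How transcripts were summed to genes and whether strand was used are not given in the sources used here. The deposited estimated counts were rounded (totals changed by at most 0.0008%). GENCODE's GRCm38 annotation gave symbols and positions for 55144 IDs, matched without version. The 241 unmatched IDs held at most 0.013% of a library's counts. No 2 libraries of a group were alike within sampling noise (chi-square per gene 48.2 to 259.0).

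Genes passing filterByExpr with the group (12872) were scaled by TMM (factors 0.869 to 1.107) and tested in R 4.3.3 with edgeR 4.0.16 (robust quasi-likelihood), group as the only term, Benjamini-Hochberg adjustment over all of them, threshold 0.05. Standard errors were derived from the F statistic. The members and lists were chosen with earlier results of these data known. The genes named are the 8 members, Acvrl1, genes overlapping a member, from each list the called genes, the 3 with the smallest p and the most abundant, and the 3 nearest profiles per member. A gene that this rule takes from a marker list is not reported here. Saa1, Nos1, Vwf, Eng, Gpihbp1, Plvap and the genes named as at 0 were added after their values were seen. Lists were counted, not tested. Ratios of TPM were tested by exact two-sided permutation. In simulated counts of this comparison over 12725 genes, 14%, 66%, 94% and 96% of genes changed 1.5-, 2-, 4- and 8-fold were recovered, and 12 of 147 called genes had not been changed. Alternatives were each library left out, replicate number as a block, other scalings, no filter, DESeq2 1.42.0, limma 3.58.1 on log2(TPM + 1) and log2(TPM + 0.1), the run as a covariate, and the omission of libraries exceeding 1000 TPM of Saa1 or 20 TPM of Fos. The fit without the third run was chosen after seeing the data.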

Additional observations from a re-analysis of the deposited data

Results flagged for a closer look

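Of 32 groups of 5 libraries examined for a library far from the others of its group, 3 stood out. Chance gives about 1 in 20 for independent groups. Here several genes enter both alone and in ratios, so that rate is only a guide. Nos2 in the control stood out through library 4, at 0.0166 TPM from 1 count. The other control libraries held 0, so any value above 0 in a single library would have stood out. The log2 ratio of Nos3 to the summed sinusoidal markers was -6.55 in labelled knockout library 1, below the other 4 of its group. The log2 ratio of Ednrb to Ednra was 0.0816 in control library 4, also below the other 4, and this library had the lowest Nos3 and Ednrb of its group as well as 1 of the 3 Saa1 levels above 1000 TPM.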

How the results depend on the processing

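Nos2 kept its direction in all 21 alternative settings and its call in 20, with leave-one-out values of 6.02 to 7.74 (edgeR adjusted p up to 0.0159). It entered the test only through the labelled knockout, so refits of the same libraries could hardly turn its direction. It lost the call under limma on log2(TPM + 1), at 0.43 with an adjusted p of 0.121, so 0 members were called higher there. Nos3 pointed higher in all 21 settings without passing (edgeR, DESeq2 or limma adjusted p from 0.0825 to 1), with 0.84 to 1.34 when a library was left out, 0.57 without the libraries rich in Saa1, 1.47 without those rich in Fos and 0.52 under limma on log2(TPM + 1). Its ratio to sinusoidal markers was 1.01 to 1.27 with a library left out, that to pan-endothelial markers 0.44 to 0.72, and that to continuous markers 0.12 to 0.42. Each of these passed (adjusted p = 0.0423, exact permutation) only without control library 1. The ratio to continuous markers turned to -0.28 when the markers were averaged on the log scale.

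Small log2 fold changes turned sign. Ece1 was 0.05 with library totals alone, 0.01 under both limma scales, 0.04 without the Fos-rich and 0.07 without the Saa1-rich libraries, and -0.11 to 0.04 with a library left out. Ednra was -0.04 with the run as a covariate and -0.02 without the third run, and 0.03 to 0.47 with a library left out. Ednrb was -0.36 with the run as a covariate, -0.4 without the Saa1-rich libraries, -0.33 without the third run and -0.12 to 0.24 with a library left out. Without the Fos-rich libraries Gucy1a1 was 0.04 and Gucy1b1 0.19. With a library left out Gucy1a1 ranged from -0.55 to 0, Gucy1b1 from -0.38 to 0.04, its ratio to stellate markers from -0.26 to 0, and Gucy1a1 over Gucy1b1 from -0.2 to 0.12. None of these passed in any setting, and the cause was not tested.

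Counts over all genes moved more. Called higher and lower were 68 and 51 without the filter, 83 and 75 with DESeq2, 2 and 3 with the run as a covariate, 7 and 10 without the Fos-rich libraries, 8 and 10 without the third run, 11 higher without the Saa1-rich libraries, and 13 lower under limma on log2(TPM + 1). With a library left out they were 18 to 40 higher and 15 to 43 lower, the most without labelled knockout library 1. Scaling by library totals alone moved the median of all genes by 0.072. Same-numbered libraries did not deviate together in every pair (r from -0.1 to 0.28). Differently numbered libraries were not compared, so these values cannot show whether the numbers pair the libraries. With the number as a replicate block Nos2 was 6.33 (edgeR adjusted p = 0.00386) and Nos3 1.07 (adjusted p = 0.475), with 16 genes higher and 24 lower.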
